A study of Arabidopsis thaliana with 36 samples.

Results

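The trehalose-6-phosphate synthase (TPS) family of Arabidopsis thaliana was taken as 8 loci, the class I gene TPS1 and the class II genes TPS5 to TPS11, out of 33977 genes in the expression table. The loci were picked by identity and not by their values, though with earlier results of these data known. All 8 passed the filter on low values. Poly(A) RNA of whole rosettes of the Col-0 accession was sequenced after gamma irradiation from a 137Cs source. Plants were 4 weeks old and had grown at 22 °C in short days of 8 h light and 16 h dark. Rosettes received no radiation (mock), 10 cGy in 7 s or 100 cGy in 71 s, and were harvested 1, 3, 24 or 72 h later, which makes 12 groups with 3 libraries each. The series asked how each dose changed transcript levels against mock plants harvested at the same time. The labels do not say whether the 3 libraries of a group come from separate plants or exposures, how mock plants were handled, or at which hour of the day plants were harvested. P-values therefore measure the spread between libraries, which may be technical.

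TPS enzymes join glucose from UDP-glucose to glucose 6-phosphate, which gives trehalose 6-phosphate (T6P), and phosphatases of the TPP family turn T6P into trehalose. In plants T6P is a signal of sucrose supply that restrains SnRK1, a protein kinase active under low energy. TPS1 is the main catalytic synthase of Arabidopsis and is needed for embryo development, while most class II proteins show little or no synthase activity and are thought to act as regulators. TPS5 is known as a gene raised by sugars, and TPS8 to TPS11 as genes raised when sugars are short.

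Per the RefSeq annotation of assembly TAIR10.1, TPS1 (AT1G78580) lies at chr1:29552340-29560912 on the minus strand, with 19 exons and a coding sequence for 942 amino acids. The class II genes have 3 to 5 exons and code for 851 to 867 amino acids. TPS7 (AT1G06410) lies at chr1:1954674-1958866 on the plus strand, TPS9 (AT1G23870) at chr1:8432179-8435656 on the plus strand and TPS10 (AT1G60140) at chr1:22176934-22181740 on the minus strand. TPS6 (AT1G68020) lies at chr1:25496928-25500584 on the plus strand and TPS8 (AT1G70290) at chr1:26470795-26474833 on the minus strand. TPS11 (AT2G18700) lies at chr2:8108898-8112010 and TPS5 (AT4G17770) at chr4:9876172-9880386, both on the plus strand. Coding sequences of TPS1 and the class II genes were identical at 59.9% to 61.9% of aligned bases over 7 pairs, and class II genes among themselves at 64.6% to 81.1% over 21 pairs. TPS8 and TPS9 were the closest pair, and no pair of transcripts shared a run of 50 bases. TPS1 overlaps AT1G78570 on the opposite strand by 99 bases, and that gene averaged 367 CPM (the gene's reads scaled to a fixed library total). The library kit keeps strand, but whether the counting used it is not given in the sources used here, so a few reads at the end of TPS1 could belong to its neighbour. Overlapping neighbours of TPS5 and TPS6 averaged under 1 CPM.

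The 250 bases before the annotated start are given for 4 class II genes chosen after their values were seen, TPS5 as the member that fell at 1 h and TPS8, TPS10 and TPS11 as members that rose, with TATCCA or its reverse complement TGGATA, a motif of sugar-repressed plant promoters, in capitals. They are read 5′ to 3′ along the gene's own strand from TAIR10.1, at chr4:9875922-9876171 for TPS5, chr1:26474834-26475083 for TPS8, chr1:22181741-22181990 for TPS10 and chr2:8108648-8108897 for TPS11.
TPS5: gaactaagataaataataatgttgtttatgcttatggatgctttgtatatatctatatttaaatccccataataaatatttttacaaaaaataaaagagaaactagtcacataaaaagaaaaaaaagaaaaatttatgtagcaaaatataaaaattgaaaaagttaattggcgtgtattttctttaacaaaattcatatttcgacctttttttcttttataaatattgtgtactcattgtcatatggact
TPS8: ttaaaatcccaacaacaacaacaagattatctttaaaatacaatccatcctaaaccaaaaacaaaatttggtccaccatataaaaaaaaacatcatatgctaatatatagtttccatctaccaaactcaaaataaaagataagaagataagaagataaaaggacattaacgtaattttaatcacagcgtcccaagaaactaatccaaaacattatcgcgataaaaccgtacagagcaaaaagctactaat
TPS10: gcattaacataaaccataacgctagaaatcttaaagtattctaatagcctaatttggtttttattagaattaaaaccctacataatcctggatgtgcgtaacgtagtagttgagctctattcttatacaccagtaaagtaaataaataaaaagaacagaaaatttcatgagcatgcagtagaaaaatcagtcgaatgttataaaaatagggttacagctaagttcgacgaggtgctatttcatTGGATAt
TPS11: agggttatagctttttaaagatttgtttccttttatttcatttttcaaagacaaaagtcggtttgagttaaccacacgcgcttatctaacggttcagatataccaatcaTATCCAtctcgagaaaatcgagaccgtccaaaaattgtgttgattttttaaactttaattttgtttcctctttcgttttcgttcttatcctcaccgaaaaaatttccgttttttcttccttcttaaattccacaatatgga
TATCCA on either strand was found in the windows of TPS6, TPS10 and TPS11, and in 13.6% of the windows of 27443 protein-coding genes. It was not found in TPS7, TPS8 and TPS9, which were also called higher at 1 h at 1 or both doses. TPS6, which held it, was not called at 1 h. The bZIP core ACGTG was found in TPS6 and TPS9 and in 22.9% of all windows, and the G-box CACGTG, which contains it, in TPS6 and 6.49% of all windows. No member held the evening element AAAATATCT, which 2.36% of windows held. The windows of TPS1, TPS5, TPS7 and TPS8 held none of these 4 motifs.

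Library depth, read from the smallest step between values, was 22100000 to 36700000 reads with a median of 31300000. A count of 3 corresponds to 0.0818 to 0.136 CPM, which covers counting error only. Replicates correlated at 0.979 to 0.994 (Pearson, log2 scale, 36 pairs). The 10 cGy 3 h replicate 1 library had the highest share of chloroplast transcripts, 0.608% against 0.331% in the next library. Without it no member passed the 10 cGy comparison at 3 h, as with it. The 5 leaf markers summed to 49100 to 65000 CPM per library and the 5 flower and seed markers to 0.0375 to 1.08 CPM. Root markers summed to 339 to 752 CPM, nearly all from PYK10 and TIP1;1, while MRN1 was at 0 in all 36 libraries and LRX1 in 32. The other class I genes TPS2, TPS3 and TPS4 reached at most 0.0699, 0.0395 and 0.151 CPM in any library, and were at 0 in 35, 34 and 13 libraries.

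TPS7 was the most abundant family member per length in all 12 groups. Its mean was 34.5 to 66.3 CPM per kb of mRNA, which was 33.3% to 53.8% of the family's summed level. TPS5 and TPS1 held ranks 2 to 4 and TPS6 ranks 4 or 5. In mock rosettes at 1 h the order was TPS7 (52.2 CPM per kb), TPS5 (20.7), TPS1 (18.6), TPS6 (11.0), TPS11 (3.12), TPS10 (2.92), TPS9 (2.28) and TPS8 (2.00). In that order the libraries of TPS5 and TPS1, of TPS11 and TPS10, and of TPS9 and TPS8 overlapped. Taken per coding length in place of mRNA length, TPS1 changed rank in 7 groups and TPS5 in 5, while TPS7 stayed first.

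TPS8 covered the widest range. It held rank 8 in mock rosettes at 1 h and rank 3 at 3 h, and its share of the family was 1.78% to 16.1%. Group means of TPS8 ran from 6.71 CPM in mock at 1 h to 65.0 CPM in 100 cGy at 72 h, a ratio of 9.69. The ratio of highest to lowest group mean was 5.52 for TPS11, 3.58 for TPS9, 2.36 for TPS5, 2.30 for TPS10, 2.01 for TPS1, 1.92 for TPS7 and 1.54 for TPS6. By that ratio the family sum moved less than any member, between 99.1 ± 3.58 (mock, 3 h) and 124 ± 5.09 CPM per kb (100 cGy, 1 h; SD, n = 3).

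**Figure D1:**
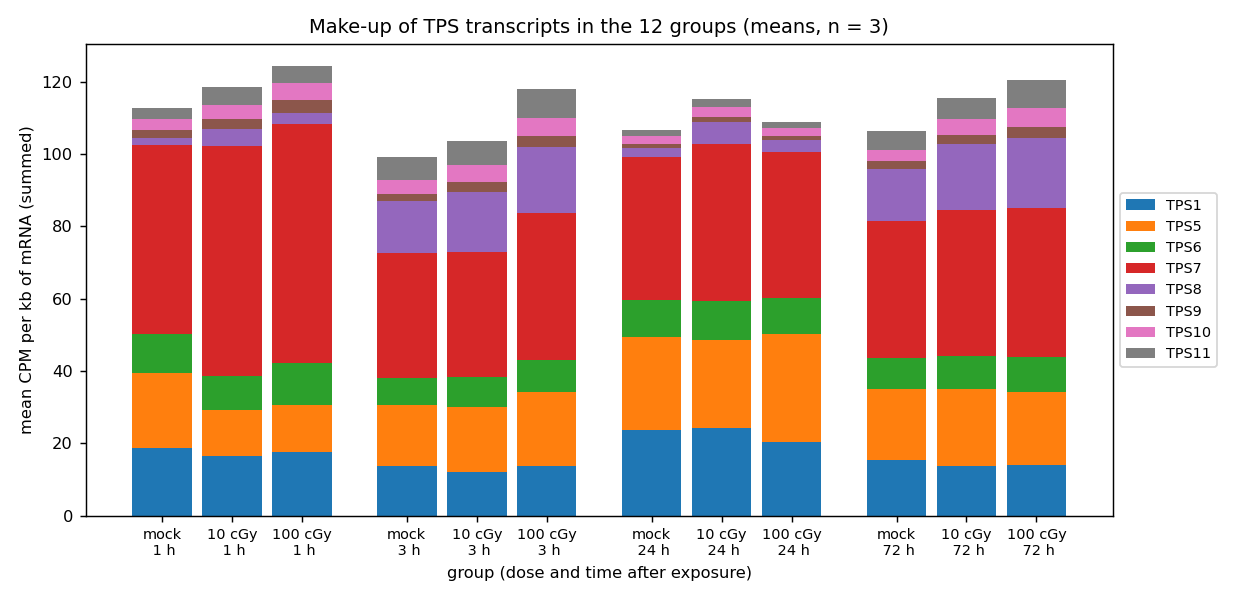
Mean CPM per kb of mRNA of the 8 TPS genes, stacked, for mock, 10 cGy and 100 cGy at 1, 3, 24 and 72 h (means of 3 libraries). TPS7 fills the largest layer in every bar, and the TPS8 layer is thin at 1 h and 24 h and thick at 3 h and 72 h.

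At 1 h after exposure 5 of 8 members passed the test at 10 cGy, with TPS7, TPS8, TPS10 and TPS11 higher and TPS5 lower than in mock rosettes. At 100 cGy 5 of 8 passed, with TPS7, TPS8, TPS9 and TPS10 higher and TPS5 lower. Calls were at an adjusted p of 0.05 in limma's moderated test, adjusted by Benjamini and Hochberg over 18875 genes. The same test called 25.3% of all tested genes at 10 cGy (13.6% higher and 11.8% lower) and 17.6% at 100 cGy (10.3% higher and 7.37% lower). The median difference of the 8 members was 0.31 (log2) at 10 cGy and 0.41 at 100 cGy, beside -0.01 and 0.02 over all tested genes. Both doses were set against the same 3 mock libraries, so a deviation of those libraries would appear in both. In whole rosettes a change of cell types and a change of RNA per cell cannot be told apart. None of the 5 leaf markers passed at either dose at 1 h. Of the 3 tested root markers PYK10 was lower at 10 cGy (log2 difference -0.70, adjusted p = 0.00966), and the root list summed to 522 to 550 CPM at 10 cGy and 550 to 647 CPM at 100 cGy, both wholly below the 665 to 668 CPM in mock. Whether this has a part in the TPS results was not tested.

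TPS5 fell at 1 h. By dose, its libraries held 70.2, 75.2 and 66.1 CPM in mock rosettes, 38.2, 42.6 and 48.3 CPM at 10 cGy, and 42.6, 44.6 and 44.9 CPM at 100 cGy. Every irradiated library was below every mock library. The log2 difference from mock was -0.71 ± 0.13 at 10 cGy (SE, adjusted p = 0.000142) and -0.67 ± 0.13 at 100 cGy (adjusted p = 0.000382). Both calls held without any single library of the comparison.

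TPS8 and TPS7 rose at 1 h. TPS8 had 6.39, 6.58 and 7.16 CPM in mock rosettes, 15.1, 16.4 and 13.7 CPM at 10 cGy, and 14.1, 9.41 and 8.48 CPM at 100 cGy. Irradiated libraries all lay above mock, and those at 100 cGy were spread more widely. Its log2 difference was 1.11 ± 0.19 at 10 cGy (SE, adjusted p = 4.86e-05) and 0.60 ± 0.19 at 100 cGy (adjusted p = 0.0240). The 100 cGy call was lost without 100 cGy replicate 1 (adjusted p = 0.218), mock replicate 1 (0.0776) or mock replicate 2 (0.0714). TPS7, the most abundant member, had 182, 186 and 184 CPM in mock rosettes, 223, 219.6 and 230.4 CPM at 10 cGy, and 234, 237 and 229 CPM at 100 cGy. These groups were narrow, and the irradiated libraries did not overlap with mock. TPS7 differed from mock by 0.29 ± 0.06 at 10 cGy (SE, adjusted p = 0.000438) and by 0.34 ± 0.06 at 100 cGy (adjusted p = 6.91e-05), and both calls held without any single library.

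TPS10 rose at both doses. It had 10.5, 10.6 and 13.2 CPM in mock rosettes, 15.3, 16.8 and 14.4 CPM at 10 cGy, and 19.4, 18.9 and 16.0 CPM at 100 cGy, with no overlap between irradiated and mock libraries. The log2 difference was 0.43 ± 0.14 at 10 cGy (SE, adjusted p = 0.0272) and 0.65 ± 0.14 at 100 cGy (adjusted p = 0.00158). The 10 cGy call was lost without mock replicate 1 (adjusted p = 0.100), mock replicate 2 (0.108), 10 cGy replicate 1 (0.0547) or 10 cGy replicate 2 (0.108). TPS9, the gene closest to TPS8 in coding sequence, had 6.93, 7.28 and 6.11 CPM in mock rosettes, 8.60, 8.92 and 8.29 CPM at 10 cGy, and 12.6, 10.3 and 8.70 CPM at 100 cGy. It passed at 100 cGy (0.59 ± 0.16, SE, adjusted p = 0.00952) and did not at 10 cGy (0.33 ± 0.16, adjusted p = 0.144). Its 100 cGy call was lost without 100 cGy replicate 1 (adjusted p = 0.0852) or mock replicate 3 (0.0515).

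TPS11, a gene with a reported part in resistance to aphids, passed at 10 cGy and not at 100 cGy. It had 7.51, 9.80 and 10.2 CPM in mock rosettes, 12.1, 15.1 and 15.1 CPM at 10 cGy, and 18.6, 13.1 and 8.64 CPM at 100 cGy. The 100 cGy libraries overlapped with mock and those at 10 cGy did not. Its log2 difference was 0.60 ± 0.21 at 10 cGy (SE, adjusted p = 0.0340) and 0.47 ± 0.21 at 100 cGy (adjusted p = 0.121). The 10 cGy call was lost without mock replicate 1 (adjusted p = 0.160), mock replicate 2 (0.0550), 10 cGy replicate 2 (0.107) or 10 cGy replicate 3 (0.106), without the filter on low values (0.0542), and in a fit of the 1 h libraries alone (0.0710). TPS1 averaged 82.4 ± 5.60 CPM at 10 cGy and 93.1 ± 4.40 CPM in mock (SD, n = 3), and did not pass (-0.18 ± 0.07, SE, adjusted p = 0.0607), but did in the fit of the 1 h libraries alone (0.0333). TPS6, which affects the shape of epidermal cells, averaged 31.3 ± 2.59 CPM at 10 cGy and 36.0 ± 0.391 CPM in mock (SD, n = 3), with an adjusted p of 0.0574. At 100 cGy TPS1 differed from mock by -0.07 (95% interval -0.22 to 0.07) and TPS6 by 0.06 (-0.10 to 0.22).

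**Figure D2:**
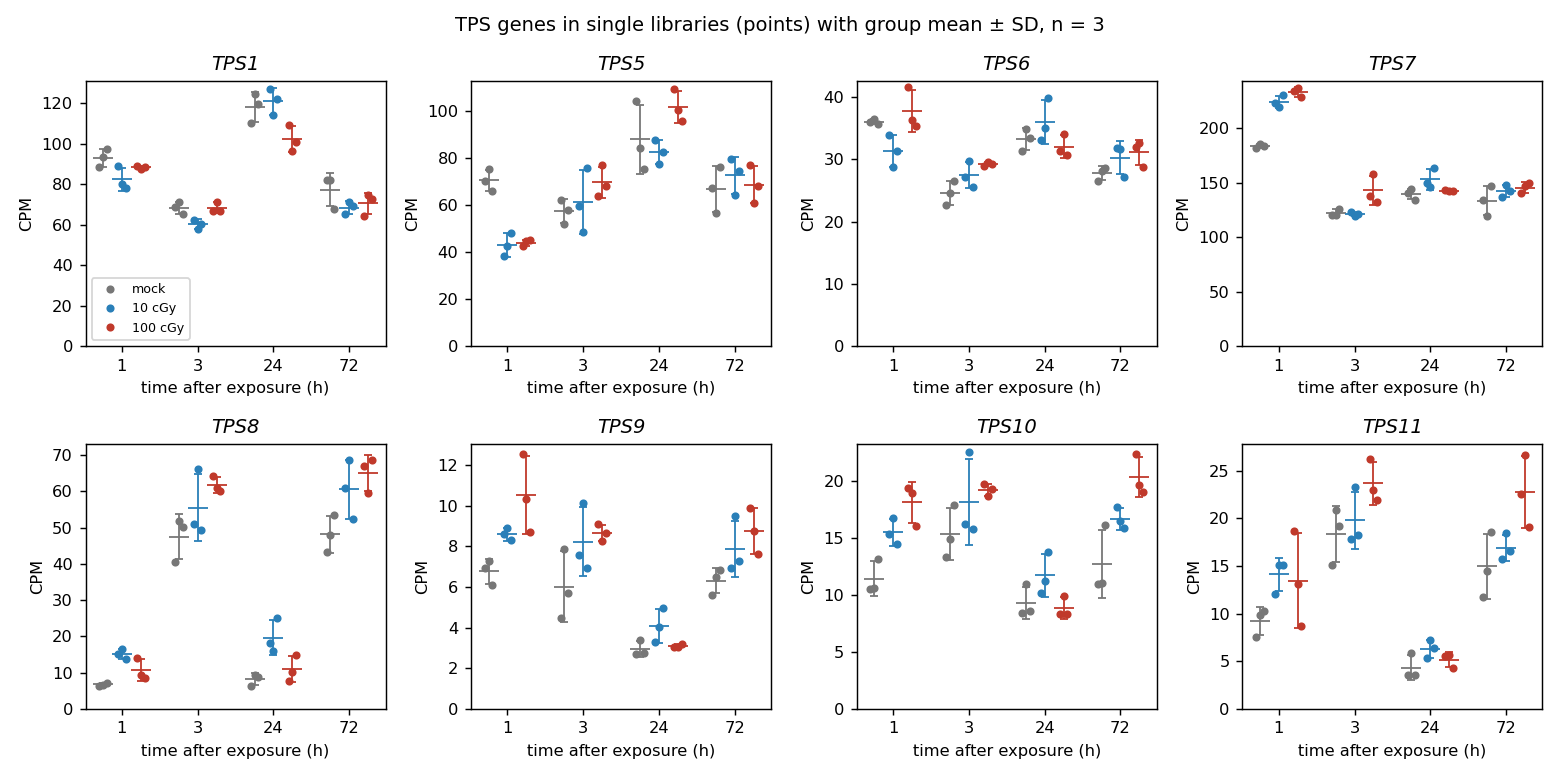
CPM of each TPS gene in every library (points) by time after exposure in h, with group mean and SD of 3 libraries, for mock, 10 cGy and 100 cGy. At 1 h the TPS5 points of both doses lie below mock, and the TPS7, TPS8, TPS9 and TPS10 points lie above it.

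At 3 h after exposure no member passed at 10 cGy, where 1.49% of all genes did; limma's unadjusted p was under 0.05 for TPS1 and TPS9, 2 of 8, and for 16.3% of all genes, a like share. At 100 cGy TPS6, TPS7 and TPS9 rose, 3 of 8 members, where 12.4% of all genes passed and 10.6% were called higher. TPS7 had 138, 158 and 133 CPM at 100 cGy against 120.1, 120.5 and 126 CPM in mock (log2 difference 0.22 ± 0.06, SE, adjusted p = 0.0146). TPS6 had 28.9, 29.6 and 29.3 CPM at 100 cGy against 22.6, 24.6 and 26.4 CPM in mock (0.25 ± 0.08, adjusted p = 0.0370). TPS9 had 9.09, 8.29 and 8.65 CPM at 100 cGy against 4.45, 7.89 and 5.69 CPM in mock (0.53 ± 0.16, adjusted p = 0.0315). The 100 cGy libraries lay above mock for all 3 genes. In this comparison the median of all tested genes was itself raised by 0.09, and 3 of 5 leaf markers passed as lower, with a list sum of 49100 to 55400 CPM at 100 cGy against 59100 to 61200 CPM in mock. The root marker TIP1;1 also passed as lower (-0.43, adjusted p = 0.015). The other tested root markers, PYK10 (0.51, adjusted p = 0.0847) and BGLU22 (0.50, adjusted p = 0.481), were higher without passing. The root list, mostly TIP1;1, summed to 339 to 395 CPM at 100 cGy against 398 to 444 CPM in mock. Of the genes called 85% were higher, but 33.1% after scaling by median ratios, which put the median of all genes at -0.01. Under that scaling the differences were 0.14 for TPS6, 0.11 for TPS7 (adjusted p = 0.269 for both) and 0.43 for TPS9 (adjusted p = 0.0956), so no member was called. None was called in a fit of the 3 h libraries alone either. The TPS7 call was also lost without 100 cGy replicate 2 (adjusted p = 0.151), mock replicate 1 (0.0620) or mock replicate 2 (0.0510). The TPS6 call was lost without any of 4 of the 6 libraries, 100 cGy replicates 2 (0.127) and 3 (0.0831) and mock replicates 1 (0.185) and 2 (0.0818). The TPS9 call was lost without any library but mock replicate 2, with adjusted p up to 0.215 without mock replicate 1. The part of the leaf and root transcripts in this result was not tested. TPS1 differed from mock by 0.00 at 100 cGy (95% interval -0.14 to 0.14), and TPS5 by 0.28 ± 0.13 (SE, adjusted p = 0.154). TPS8 averaged 61.7 ± 2.21 CPM at 100 cGy and 47.5 ± 6.12 CPM in mock (SD, n = 3), with no overlap of libraries, and did not pass (0.38 ± 0.19, SE, adjusted p = 0.176).

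At 24 h after exposure 1 of 8 members, TPS8, passed at 10 cGy, where 3.29% of all genes did and 2.62% were called higher (79.5% of the calls, and 35% of them after median-ratio scaling). Its libraries held 6.34, 9.34 and 8.81 CPM in mock rosettes, 18.2, 15.8 and 24.9 CPM at 10 cGy, and 7.69, 10.2 and 14.8 CPM at 100 cGy. Those at 10 cGy lay above mock and those at 100 cGy overlapped with it. The log2 difference from mock was 1.21 ± 0.19 at 10 cGy (SE, adjusted p = 0.000836). The call held after median-ratio scaling and without any single library, with adjusted p up to 0.0189 in the latter. A fit of the 24 h libraries alone called 0 genes in all and gave TPS8 an adjusted p of 0.144. Limma's unadjusted p was under 0.05 for 5 of 8 members at 10 cGy, TPS7 to TPS11, with differences of 0.13 to 1.21, and for 19.1% of all genes. No leaf marker passed there, and the leaf list summed to 50900 to 55700 CPM at 10 cGy against 54400 to 61600 CPM in mock. The sums of the root list, mostly TIP1;1, did not overlap, with 598 to 674 CPM at 10 cGy against 714 to 752 CPM in mock. TIP1;1 was below mock in every library without passing (-0.32, adjusted p = 0.108). PYK10 (0.25, adjusted p = 0.525) and BGLU22 (0.64, adjusted p = 0.461) were higher, also without passing. The part of either list in the result was not tested. At 100 cGy no member passed, where 0.599% of all genes did (33.6% of the calls higher, and 51.6% after median-ratio scaling); limma's unadjusted p was under 0.05 for 1 of 8, TPS1, and for 14.1% of all genes, a like share. TPS1 averaged 102 ± 6.61 CPM at 100 cGy and 118 ± 7.27 CPM in mock (SD, n = 3). TPS8 differed from mock by 0.37 at 100 cGy (95% interval -0.02 to 0.75).

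At 72 h after exposure no member passed at 10 cGy, where 9.38% of all genes did; limma's unadjusted p was under 0.05 for TPS1 and TPS10, 2 of 8, and for 23.6% of all genes, a like share. TPS10 averaged 16.7 ± 0.972 CPM at 10 cGy and 12.7 ± 2.96 CPM in mock (SD, n = 3; log2 difference 0.40, adjusted p = 0.0772). TPS10 rose at 100 cGy, 1 of 8 members, where 1.58% of all genes passed and 1.37% were called higher (86.3% of the calls, and 61.3% after median-ratio scaling). It had 22.3, 19.6 and 19.0 CPM at 100 cGy against 11.0, 11.0 and 16.1 CPM in mock, without overlap (log2 difference 0.68 ± 0.14, SE, adjusted p = 0.0217). The call was lost without 100 cGy replicate 1 (adjusted p = 0.146), mock replicate 1 (0.132) or mock replicate 2 (0.130). It was also lost in a fit of the 72 h libraries alone (0.0556), and was kept after median-ratio scaling. TPS11 had 22.5, 26.6 and 19.0 CPM at 100 cGy against 11.8, 14.5 and 18.6 CPM in mock, also without overlap, and did not pass (0.60 ± 0.21, SE, adjusted p = 0.118). TPS8 averaged 65.0 ± 4.93 CPM at 100 cGy and 48.2 ± 5.13 CPM in mock (SD, n = 3; adjusted p = 0.217). TPS9 differed from mock by 0.44 at 100 cGy (adjusted p = 0.141). Libraries of TPS8 and of TPS9 did not overlap with mock there. Limma's unadjusted p was under 0.05 for 5 of 8 members at 100 cGy, TPS7 to TPS11, all higher, and for 17.6% of all genes. No leaf or root marker passed at 100 cGy. The root list, mostly TIP1;1, summed to 397 to 447 CPM at 100 cGy against 455 to 502 CPM in mock. Its tested members went both ways: TIP1;1 was lower (-0.33, adjusted p = 0.112). PYK10 (0.49, adjusted p = 0.183) and BGLU22 (0.07, adjusted p = 0.954) were higher. The part of this list in the result was not tested.

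**Figure D3:**
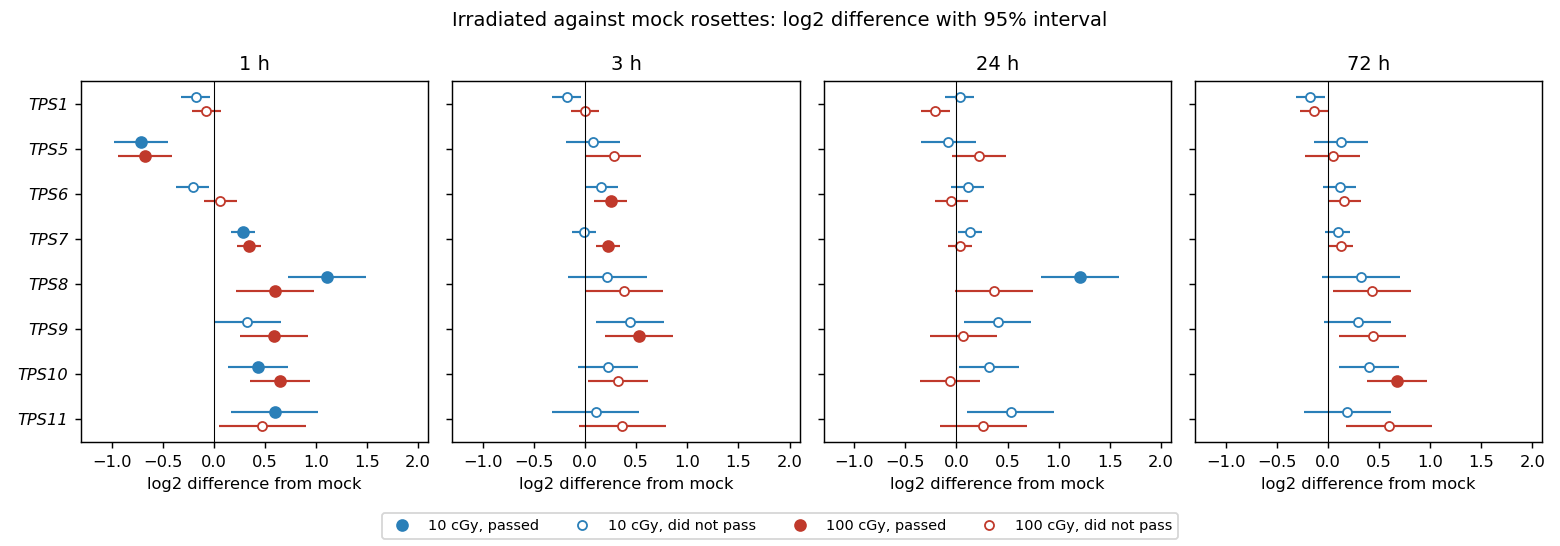
Log2 difference from mock with 95% interval for each TPS gene at 10 cGy and 100 cGy, in a panel for each time after exposure. Filled points passed at an adjusted p of 0.05: TPS5 lies to the left of 0 at 1 h at both doses (-0.71 and -0.67), and TPS8 at 10 cGy lies near 1.2 at 24 h (1.21).

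Set directly against each other, the doses differed past the threshold in a single member at each of 3 h and 24 h and in none at 1 h and 72 h. TPS8 at 24 h was lower at 100 cGy than at 10 cGy (-0.84 ± 0.19, SE, adjusted p = 0.0280), where 1.13% of all genes passed and 0.985% were called lower. Of those calls 12.7% were higher, and 80.4% after median-ratio scaling, under which TPS8 was still called. The TPS8 call was lost without 10 cGy replicate 3 (adjusted p = 0.174), 100 cGy replicate 1 (0.106) or 100 cGy replicate 2 (0.0762), and in a fit of the 24 h libraries alone (0.226). At 24 h limma's unadjusted p was under 0.05 for 6 of 8 members and for 18.9% of all genes. Of these members TPS5 was higher at 100 cGy, and TPS1, TPS6, TPS8, TPS9 and TPS10 were lower. At 3 h it was under 0.05 for TPS1 and TPS7, 2 of 8, and for 29.2% of all genes. TPS7 at 3 h was higher at 100 cGy than at 10 cGy (0.23 ± 0.06, SE, adjusted p = 0.0113), where 12.6% of all genes passed, 11.7% were called higher and the median of all genes was raised by 0.11. Of those calls 93.5% were higher, and 34.8% after median-ratio scaling. The TPS7 call was lost after median-ratio scaling (0.10, adjusted p = 0.395), in a fit of the 3 h libraries alone (0.0969), and without 100 cGy replicate 2 (0.135) or 10 cGy replicate 2 (0.0513). At 1 h, where 0.726% of all genes passed, limma's unadjusted p was under 0.05 for TPS6 and TPS8, 2 of 8, and for 9.45% of all genes. TPS5 at 1 h differed between the doses by 0.04 (95% interval -0.23 to 0.31) and TPS7 by 0.06 (-0.06 to 0.18). TPS8 at 1 h was at 10.6 ± 2.99 CPM at 100 cGy and 15.1 ± 1.32 CPM at 10 cGy (SD, n = 3; log2 difference -0.51, 95% interval -0.89 to -0.13, adjusted p = 0.311). At 72 h limma called 0 of 18875 genes, with 1869 genes (9.9%) and 0 of 8 members at an unadjusted p under 0.05.

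The dose effect of TPS5 at 1 h differed from that at each later time, though for 10 cGy at 24 h and 100 cGy at 72 h the call depended on single libraries. Its 10 cGy effect was higher by 0.79 at 3 h, 0.63 at 24 h and 0.84 at 72 h than at 1 h (SE 0.18 each; adjusted p = 0.00361, 0.0225 and 0.00232). For 100 cGy the differences were 0.95, 0.89 and 0.72 (adjusted p = 0.000717, 0.00169 and 0.0131). The 10 cGy call at 24 h was lost after median-ratio scaling (adjusted p = 0.0518) and without mock 1 h replicate 2 (0.0609), 10 cGy 1 h replicate 1 (0.065), mock 24 h replicate 3 (0.0706) or 10 cGy 24 h replicate 1 (0.0512). The 100 cGy call at 72 h was lost without mock 72 h replicate 2 (0.0562) or 100 cGy 72 h replicate 1 (0.0505). All 6 contrasts use mock libraries of 1 h in common, and those of a dose its 1 h libraries. For 10 cGy 4 of 8 members passed at 3 h against 1 h, with TPS5 and TPS6 higher and TPS7 and TPS8 lower, where 14.6% of all genes passed (5.83% higher and 8.78% lower). At 24 h TPS5 alone passed, 1 of 8, where 12.5% of all genes did (7.86% higher, which is 63.1% of the calls, against 40.1% after median-ratio scaling). At 72 h 2 of 8 passed, TPS5 higher and TPS8 lower, where 15.1% of all genes did (7.94% higher and 7.14% lower). For 100 cGy TPS5 alone passed at 3 h, where 11.4% of all genes did, and at 72 h, where 7.59% did (4.14% higher). At 3 h 7.83% of all genes were called higher, which is 68.5% of the calls, against 40.1% after median-ratio scaling. TPS5 was still called at 3 h under that scaling. At 24 h 3 of 8 passed for 100 cGy, TPS5 higher and TPS7 and TPS10 lower, where 8.81% of all genes did (4.15% higher and 4.66% lower). The calls of TPS6 and TPS8 for 10 cGy at 3 h were each lost without any of 4 of the 12 libraries, that of TPS8 at 72 h without any of 9, and that of TPS10 for 100 cGy at 24 h without any of 7.

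In mock rosettes, most members differed between harvest times. At 3 h against 1 h 6 of 8 passed, where 44.1% of all genes did (24% higher and 20.1% lower): TPS8, TPS10 and TPS11 were higher at 3 h, and TPS1, TPS6 and TPS7 lower. TPS8 had 40.5, 51.7 and 50.3 CPM at 3 h against 6.39, 6.58 and 7.16 CPM at 1 h, a log2 difference of 2.73 ± 0.19 (SE, adjusted p = 1.6e-12). At 24 h TPS8 was back at 8.16 ± 1.60 CPM, which did not differ past the threshold from 6.71 ± 0.402 CPM at 1 h (SD, n = 3; adjusted p = 0.314). At 72 h it stood at 48.2 ± 5.13 CPM (SD, n = 3), which was 2.75 above 1 h on the log2 scale (adjusted p = 5.65e-12) and also above 24 h (adjusted p = 6.68e-12). The difference of TPS8 between mock harvests was thus larger than that between any dose and mock, which was at most 1.21.

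TPS11 was higher at 3 h and 72 h than at 1 h in mock, as TPS8 was, but lower at 24 h. It averaged 9.19 ± 1.47, 18.4 ± 2.94, 4.29 ± 1.31 and 14.9 ± 3.43 CPM at 1, 3, 24 and 72 h (SD, n = 3). Its log2 difference from 1 h was 0.96 at 3 h (adjusted p = 0.000372), -1.04 at 24 h (0.000204) and 0.66 at 72 h (0.0145). The last was lost without mock 1 h replicate 1 (adjusted p = 0.0879) or mock 72 h replicate 3 (0.0989). TPS9 was at 2.94 ± 0.379 CPM at 24 h against 6.77 ± 0.601 CPM at 1 h (SD, n = 3; log2 difference -1.08, adjusted p = 4.06e-06). TPS7 was higher in mock at 1 h than at any later time, with log2 differences from 1 h of -0.59, -0.39 and -0.46 at 3, 24 and 72 h. TPS1 averaged 93.1 ± 4.40, 68.4 ± 2.95, 118 ± 7.27 and 77.4 ± 8.13 CPM at the 4 times (SD, n = 3), and differed from 1 h each time, by -0.44, 0.34 and -0.27. TPS6 was lower at 3 h (-0.55) and 72 h (-0.37) than at 1 h. TPS5 did not pass against 1 h at any time (0.31 at 24 h, adjusted p = 0.0629, but 0.0242 in a fit of the 1 h and 24 h libraries alone). It was lower at 72 h than at 24 h (-0.39, adjusted p = 0.0153), a call lost without mock 24 h replicate 1 (0.130) or mock 72 h replicate 2 (0.116). TPS10 was higher at 3 h than at 1 h (0.41, adjusted p = 0.0211) and at 72 h than at 24 h (0.42, adjusted p = 0.02004). The first was lost without mock 1 h replicate 1 (0.0818) or 2 (0.0798) or mock 3 h replicate 3 (0.129), and the second without mock 24 h replicate 1 (0.0874) or 3 (0.0765) or mock 72 h replicate 3 (0.201).

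At 24 h against 1 h 4 of 8 members passed in mock, 1 higher and 3 lower, where 38.4% of all genes did (20.3% higher and 18.1% lower). At 72 h against 1 h 5 passed, 2 higher and 3 lower, where 33.4% of all genes did (18.4% higher and 14.9% lower). At 72 h against 24 h 7 passed, 4 higher and 3 lower, where 42.7% of all genes did (22% higher and 20.7% lower). The last count includes TPS6, which was lost without mock 24 h replicate 2 (adjusted p = 0.0524). Genes of the circadian clock moved between the same mock harvests. LHY, a clock gene of the morning, was at 125 ± 7.45, 9.67 ± 2.87, 514 ± 17.4 and 33.4 ± 1.98 CPM at 1, 3, 24 and 72 h (SD, n = 3). At 3 h all 10 tested clock genes differed from 1 h, 7 higher and 3 lower, where 44.1% of all genes did. At 24 h 8 of 10 differed from 1 h, where 38.4% of all genes did. Age, hour of the day and time after handling cannot be told apart in these harvests.

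**Figure D4:**
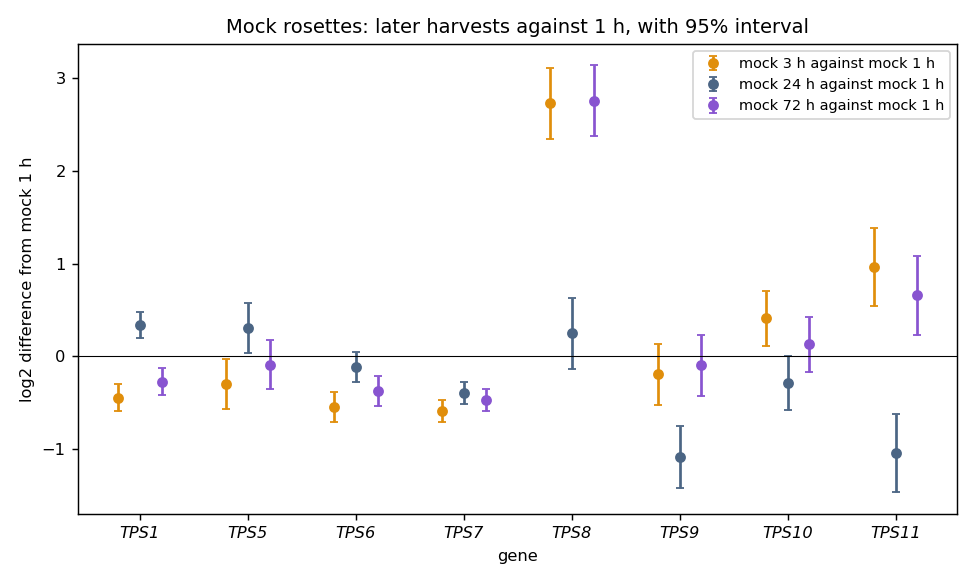
Log2 difference of each TPS gene in mock rosettes harvested at 3, 24 and 72 h from mock rosettes harvested at 1 h, with 95% interval. TPS8 lies at 2.73 at 3 h and 2.75 at 72 h but near 0 at 24 h, and TPS9 and TPS11 lie near -1 at 24 h.

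Genes around T6P were followed at 1 h, on lists chosen from knowledge of the pathway, though with earlier results of these data known. The counts of these lists stand beside 25.3% of all genes called at 10 cGy and 17.6% at 100 cGy. Of 9 tested TPP and trehalase genes, 3 rose at 10 cGy and 2 at 100 cGy, shares near those of all genes. TPPG averaged 10.4 ± 1.19 CPM in mock, 19.7 ± 2.97 CPM at 10 cGy and 17.8 ± 2.61 CPM at 100 cGy (SD, n = 3). TPPG differed from mock by 0.88 at 10 cGy (adjusted p = 0.000387) and 0.73 at 100 cGy (adjusted p = 0.00325). TPPA averaged 48.0 ± 2.39 CPM in mock, 61.5 ± 5.76 CPM at 10 cGy and 66.8 ± 4.76 CPM at 100 cGy (SD, n = 3). TPPA differed from mock by 0.35 at 10 cGy (adjusted p = 0.00151) and 0.47 at 100 cGy (adjusted p = 6.99e-05). TRE1, the trehalase that splits trehalose, passed at 10 cGy with 6.93 ± 0.458 CPM against 3.68 ± 0.989 CPM in mock (0.85, adjusted p = 0.0237). Of 9 subunits and activating kinases of SnRK1, KIN11 (0.20) and KINB1 (0.31) rose and KING1 fell (-0.40) at 10 cGy. At 100 cGy KINB1 (0.35) rose. These shares were also near or under those of all genes.

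Transcripts known to rise in low sugar passed in 5 of 10 cases at 10 cGy and in 2 of 10 at 100 cGy, all higher, where 25.3% and 17.6% of all genes passed, so the 100 cGy count was near the share of all genes. The list's median was 0.69 at 10 cGy and 0.44 at 100 cGy, beside the medians near 0 of all genes. DIN10, a gene induced by darkness and starvation, averaged 85.5 ± 6.78 CPM in mock, 232 ± 11.2 CPM at 10 cGy and 214 ± 0.919 CPM at 100 cGy (SD, n = 3). The log2 difference from mock was 1.44 at 10 cGy (adjusted p = 0.00496) and 1.32 at 100 cGy (adjusted p = 0.0129). SEN5 differed from mock by 1.64 at 10 cGy (adjusted p = 0.000157) and by 1.11 at 100 cGy (0.00956). BT2 (1.58, adjusted p = 0.00142) and J8, a chaperone gene (0.80, adjusted p = 0.00695), passed at 10 cGy. Between mock harvests these markers did not move together: at 3 h against 1 h DIN10 fell by 3.06 on the log2 scale while J8 rose by 1.65. Of 5 bZIP factors under sucrose control 4 rose at 10 cGy and 3 at 100 cGy. BZIP63, a target of SnRK1, averaged 10.2 ± 1.06 CPM in mock, 29.0 ± 1.49 CPM at 10 cGy and 23.7 ± 3.31 CPM at 100 cGy (SD, n = 3). BZIP63 differed from mock by 1.47 at 10 cGy (adjusted p = 2.17e-09) and 1.17 at 100 cGy (adjusted p = 1.56e-07). BZIP63 was also called higher at 24 h at 10 cGy (0.70, adjusted p = 0.00347), as was J8 (0.80, adjusted p = 0.0379). There 3.29% of all genes passed, and 79.5% of the calls were higher, against 35% after median-ratio scaling. A fit of the 24 h libraries alone called 0 genes, so neither BZIP63 nor J8 passed in it.

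Among 12 sugar-induced and starch genes 2 rose and 3 fell at 10 cGy, and 2 fell at 100 cGy, where 25.3% of all genes passed at 10 cGy and 17.6% at 100 cGy; the 100 cGy count was at the share of all genes. DPE2, which works in maltose use at night, averaged 194 ± 6.34 CPM in mock, 139.8 ± 1.32 CPM at 10 cGy and 136 ± 2.25 CPM at 100 cGy (SD, n = 3). The log2 difference from mock was -0.47 at 10 cGy (adjusted p = 8.34e-05) and -0.51 at 100 cGy (adjusted p = 3.97e-05). At 1 h 3 of 10 clock genes were higher at 10 cGy, CCA1 (0.21), GI (0.30) and PRR7 (0.18), and PRR9 was lower at 100 cGy (-0.34), counts near or under the shares of all genes. Their part in the TPS results was not tested. At 3 h after 100 cGy 4 of 9 TPP and trehalase genes passed, all higher, TPPJ (0.51), TPPE (0.41), TPPF (0.45) and TRE1 (0.88), where 12.4% of all genes passed. In that comparison 85% of the calls were higher, but 33.1% after median-ratio scaling, and leaf markers were lower at 100 cGy, whose part was not tested. Under that scaling, which was tried on this list after the data were seen, the 4 calls were lost (adjusted p of 0.0575 to 0.0841), and 1 of 9 passed, TPPA, which was lower (-0.33, adjusted p = 0.00456).

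The genes whose 12 group means ran most like those of a member were named from 14343 tested genes with a mean of at least 5 CPM. The points share libraries and harvest times, so these values of Pearson's r describe the pattern and carry no p. TPS8 ran with J8 (r = 0.989), AT5G60680 (0.985) and AT2G20670 (0.984). TPS11 ran with MYBL2, a regulator of flavonoid synthesis (0.986), J11 (0.981) and BLH7 (0.979). TPS7 ran with VAP27-1 and RAB8C (0.989 each) and TPS5 with AT5G37790 (0.976), AT5G64550 (0.967) and CYP81H1 (0.965). TPS1 ran with AT1G10380 (0.985), TPS9 with AT4G38900 (0.982), TPS10 with AT1G27290 (0.963) and TPS6 with KCS11 (0.932). Within the family TPS10 and TPS11 ran closest together (0.918), followed by TPS9 and TPS10 (0.900), while TPS1 and TPS11 ran opposite (-0.934). TPS8 and TPS9, the pair closest in coding sequence, had an r of 0.439.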

How the data were processed

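Whole-rosette poly(A) RNA of 36 libraries was measured by RNA-seq, and groups, doses, times and replicate numbers were taken from the sample labels. Per the submitters' processing notes, Trimmomatic 0.32, STAR 2.5.2b, RSEM 1.2.28 and the build TAIR10 were used, with no role or order given. The authors deposited CPM, read counts scaled per library total, for 33977 genes, and these values were used here. They also deposited natural log values, which equal ln(CPM + 1) to within 4.1e-09. Dividing low values by each library's smallest step gave whole numbers for 88.6% to 90.5% of them (tolerance 0.02), so no count test was run.

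Kept were 18875 genes that reached 1 CPM in 3 or more libraries. Log2(CPM + 0.5), on which differences of weakly expressed genes are understated, was fitted with 1 mean per group over all 36 libraries with limma 3.58.1 (R 4.3.3, with version 1.17.8 of data.table), with an intensity trend. Each contrast's p-values were adjusted over all tested genes (Benjamini-Hochberg). The script was tested on simulated data. Contrasts were each dose against mock, 100 cGy against 10 cGy, mock harvest times, and dose effects at later times minus those at 1 h. Alternatives were other pseudocounts, no filter, median-ratio scaling, fits of the times compared only, no trend, a replicate block, and leaving out each library.

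The members and lists were chosen with earlier results of these data known. All 8 members are named; other lists name up to 4 called genes with the smallest p in a contrast, of which a part is printed. Lengths, coordinates and sequences are RefSeq's for TAIR10.1; the nuclear chromosomes are those of TAIR10, and the expression table holds no coordinates. Tables and figures used python 3.11.15, pandas 2.3.3, numpy 2.4.6, biopython 1.88 and matplotlib 3.10.9.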

Additional observations from a re-analysis of the deposited data

Results flagged for a closer look

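The effect of a dose at 3, 24 or 72 h differed from its effect at 1 h in 12 cases among the 8 members, by a test of the difference itself (limma, log2 scale, adjusted over 18875 genes). TPS5 did so in all 6 contrasts. For 10 cGy its effect exceeded that at 1 h by 0.7861 at 3 h (adjusted p = 0.00361), 0.6316 at 24 h (0.0225) and 0.8382 at 72 h (0.00232). For 100 cGy the differences were 0.9502 at 3 h (adjusted p = 0.000717), 0.8903 at 24 h (0.00169) and 0.7168 at 72 h (0.0131). Of these, the 10 cGy difference at 24 h was lost without any of 4 libraries, mock 1 h replicate 2, 10 cGy 1 h replicate 1, mock 24 h replicate 3 or 10 cGy 24 h replicate 1 (highest adjusted p 0.0706). The 100 cGy difference at 72 h was lost without mock 72 h replicate 2 (0.0562) or 100 cGy 72 h replicate 1 (0.0505).

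The rise of TPS7 at 1 h was smaller later, by -0.2968 at 3 h after 10 cGy (adjusted p = 0.0133) and by -0.3113 at 24 h after 100 cGy (0.0141), both kept without any single library. The TPS8 effect of 10 cGy was lower than at 1 h by -0.8895 at 3 h (adjusted p = 0.0211) and by -0.7842 at 72 h (0.0426). The first was lost without 10 cGy 1 h replicate 2, mock 3 h replicate 2 or 10 cGy 3 h replicate 1 or 3 (highest adjusted p 0.0535), and the second without any of 9 of 12 libraries (highest 0.111). TPS6 at 3 h after 10 cGy differed by 0.3632 (adjusted p = 0.0258) and was lost without mock 1 h replicate 2, 10 cGy 1 h replicate 2, mock 3 h replicate 1 or 10 cGy 3 h replicate 2 (highest 0.0871). TPS10 at 24 h after 100 cGy differed by -0.7091 (adjusted p = 0.0243) and was lost without any of 7 of 12 libraries (highest 0.0922). These contrasts share the 1 h libraries, and with 18875 genes tested 7.59% to 15.1% of all genes passed in them.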

How the results depend on the processing

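No member's call changed direction under any alternative. Of 357 called member values under the 7 other settings 341 stayed past the threshold and 16 did not. With single libraries left out, 304 of 378 stayed and 74 did not. After median-ratio scaling the number of members called was 0 for 100 cGy against mock at 3 h (3 as reported, with 1438 in place of 2346 genes called in all), 0 for 100 cGy against 10 cGy at 3 h (1 as reported, 914 in place of 2372 genes) and 0 for the 10 cGy effect at 24 h minus that at 1 h (1 as reported, TPS5). With the libraries of the times compared alone, a fit with fewer samples, it was 0 for 100 cGy at 3 h (571 genes), 10 cGy at 24 h (0 in place of 621 genes), 100 cGy at 72 h (50 in place of 299), 100 cGy against 10 cGy at 3 h (82 genes) and at 24 h (1 in place of 213). In such fits TPS1 was gained for 10 cGy at 1 h (adjusted p = 0.0333) and TPS5 for mock 24 h against 1 h (0.0242). The 10 cGy effect at 72 h minus that at 1 h had 1 member called in place of 2 without the filter and 1 without the trend. For all genes, the count without the filter was 153 in place of 282 for 10 cGy at 3 h, 54 in place of 113 for 100 cGy at 24 h, 181 in place of 299 at 72 h, and 2 in place of 0 for 100 cGy against 10 cGy at 72 h. Without the trend it was 51 for 100 cGy at 24 h and 186 at 72 h. With the times compared alone it was 31 for 10 cGy at 3 h, 1 for 100 cGy at 24 h, 855 in place of 1771 for 10 cGy at 72 h and 83 in place of 137 for 100 cGy against 10 cGy at 1 h. At 1 h the times compared alone gave more genes, 5288 in place of 4782 for 10 cGy and 3755 in place of 3328 for 100 cGy. The cause of the losses under any of these settings was not tested.

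Leaving out single libraries gave 3 to 6 members at 1 h for 10 cGy and for 100 cGy, 0 to 2 at 3 h for 100 cGy, 0 to 2 at 72 h for 10 cGy (2 without mock 72 h replicate 3) and 0 to 1 at 72 h for 100 cGy. It gave 0 to 1 for 100 cGy against 10 cGy at 3 h and at 24 h. For the effects minus those at 1 h the ranges were 2 to 4, 0 to 1 and 1 to 2 for 10 cGy at 3, 24 and 72 h, and 0 to 1 for 100 cGy at 72 h.

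Same-numbered libraries of a time did not deviate together: over 36 pairs r was -0.429 to 0.412 with a median of -0.0246, 10 pairs were over 0.1, and 9 of 36 libraries correlated best with their own number. With the replicate block all 51 called member values stayed called, and the 10 cGy effect at 72 h minus that at 1 h had 3 members in place of 2, TPS6 added. The block called 51 in place of 113 genes for 100 cGy at 24 h, 138 in place of 299 at 72 h and 128 in place of 213 for 100 cGy against 10 cGy at 24 h.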
